A study of Schizosaccharomyces pombe with 30 samples.

Results

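The sites described here are Seb1 crosslink sites that lie antisense to protein-coding genes of the fission yeast *Schizosaccharomyces pombe*, in RNA that carries no annotated gene. They were taken from a list of 15824 sites by 3 conditions. A site had to lie inside no annotated gene of its own strand and not within 1000 nt after the 3′ end of any gene of its strand, and it had to face a coding gene on the other strand, from 500 nt before that gene's transcription start site (TSS) to its 3′ end. Of the 15789 sites on the nuclear chromosomes I, II and III, 264 (1.67%) met all 3 conditions. No read count or occupancy entered the choice. The plus strand held 126 of them and the minus strand 138.

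The list comes from 1 PAR-CLIP library of *S. pombe* cells of genotype h-, seb1::seb1-TAP::KanMX, in which the chromosomal seb1 gene carries a TAP tag. The medium held 4% glucose, 10 mg per litre of uracil and 100 µM 4-thiouracil, and growth was at 30 °C. A further 900 µM 4-thiouracil was added for 4 h before 365 nm light was given at 12 J per cm2. The authors normalised the sites with 1 RNA-Seq library of wild-type h- cells, so the controls lacked the tag. These cells were labelled with 4-thiouracil in the same way and also irradiated. For their light dose the sample labels give 12 J per cm2 and the paper 1 J per cm2. The other samples of the series, RNA-Seq of Seb1 point mutants and ChIP-Seq, were not analysed here.

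Eukaryotic promoters often fire in both directions, and RNA polymerase II also starts inside genes and runs past their ends, which leaves short-lived antisense RNA. In yeasts such cryptic RNA is usually ended early and degraded by the nuclear exosome. Seb1 joins a CTD-interacting domain, which binds the tail of the polymerase, to an RNA recognition motif, and in budding yeast its relative Nrd1 ends transcription of cryptic and small non-coding RNA. In PAR-CLIP, 4-thiouridine in the RNA is crosslinked to bound protein by long-wave UV light and is then read as C, so that a T-to-C transition marks the contacted base. UGUA and GUAG were followed here as the letters of the Seb1 site and of the related Nrd1 site, and any RNA that holds UGUAG holds both.

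For each site the list gives the reads that cover it, the reads with the transition and an occupancy. Occupancy has a maximum of 1 and is the number of transitions over a whole number, which is read here as the RNA-Seq coverage of the base. Whether that coverage counts reads of the site's own strand only was not tested. There is 1 library and no replicate. All intervals are therefore 95% intervals of counting error only (Wilson for shares, exact Poisson for densities, order statistics for medians), and no test between groups was possible. PCR copies are not told apart in these counts.

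The surroundings of the 5 largest clusters of antisense sites, of a further cluster before amt2 and of single sites opposite wdr70 and map2 are shown first, because they show where the letters of the motif counts stand. Each line gives 25 nt on both sides of the site or of the outermost sites, 5′ to 3′ on the crosslinked strand, read from the ASM294v3 genome with U for T. UGUA and GUAG are in capitals.
Before rps7, chrI:2242915-2243014, plus strand: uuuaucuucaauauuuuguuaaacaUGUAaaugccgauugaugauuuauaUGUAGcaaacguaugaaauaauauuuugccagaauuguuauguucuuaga
Before amt2, chrI:1730643-1730726, minus strand: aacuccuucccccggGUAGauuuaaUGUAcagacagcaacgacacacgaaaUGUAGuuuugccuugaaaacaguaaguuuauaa
Before amt2, chrI:1730554-1730630, minus strand: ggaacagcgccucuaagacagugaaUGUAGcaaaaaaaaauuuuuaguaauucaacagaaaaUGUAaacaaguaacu
Before SPBC13G1.05, chrII:3733917-3734001, minus strand: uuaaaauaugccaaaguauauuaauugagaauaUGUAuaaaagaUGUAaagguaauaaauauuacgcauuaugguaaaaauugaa
After the TSS of mug5, chrI:5243089-5243183, minus strand: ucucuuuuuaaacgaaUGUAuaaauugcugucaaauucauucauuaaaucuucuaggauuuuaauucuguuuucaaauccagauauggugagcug
Opposite the body of wdr70, cluster, chrI:1679245-1679340, plus strand: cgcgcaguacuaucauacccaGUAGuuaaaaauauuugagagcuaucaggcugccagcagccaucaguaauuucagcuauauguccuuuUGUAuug
Opposite the body of wdr70, single site, chrI:1679572-1679622, plus strand: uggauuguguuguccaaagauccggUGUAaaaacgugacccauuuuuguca
Opposite the end of map2, chrIII:986105-986155, plus strand: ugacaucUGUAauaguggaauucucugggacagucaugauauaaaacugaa
In the rps7 sequence the crosslinked bases are at positions 26, 46, 51 and 75, counted from 1 at the 5′ end, and the bases at 26 and 51 open the UGUA copies in capitals. In the first amt2 sequence they are at 26, 57 and 59, and in the other at 26 and 52. The base at 26 opens a UGUA in both. In the wdr70 cluster they are at 26, 36 and 71, and none opens UGUA, while the single wdr70 site, at 26, does. In the mug5 sequence the crosslinked bases, at 26, 49, 61 and 70, all follow the single UGUA. The map2 site, at 26, lies after its UGUA.

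Before any comparison, a group of sites that stood apart from the rest has to be set out. At 8 of the 264 sites (3.03%) at least 90% of the reads carried the transition, against 0.481% of all nuclear sites. Together they held 3619 of the 4365 transitions counted over the antisense sites, or 82.9%. The 4 antisense sites with over 100 transitions faced SPAC23H3.04, an uncharacterized gene (1338 transitions in 1349 reads), SPCC11E10.09C, which encodes an alpha-amylase-like protein (1234 in 1265), SPBPB8B6.02C, a urea transporter gene (436 in 436), and ght1, which encodes a glucose transporter (431 in 433). None of these 4 had UGUA or GUAG within 25 nt.

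The 4 sites had 9 letters in common once the crosslinked base is taken as changed. Their surroundings are shown with those 9 letters in capitals as the genome has them, since the letters set these sites apart from the sequences above.
Opposite SPAC23H3.04, chrI:2499421-2499471, minus strand: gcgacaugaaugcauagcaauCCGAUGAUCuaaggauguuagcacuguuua
Opposite SPCC11E10.09C, chrIII:1473647-1473697, plus strand: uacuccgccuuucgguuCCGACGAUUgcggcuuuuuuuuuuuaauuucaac
Opposite SPBPB8B6.02C, chrII:45901-45951, plus strand: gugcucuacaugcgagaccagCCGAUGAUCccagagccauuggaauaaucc
Opposite ght1, chrIII:233486-233536, plus strand: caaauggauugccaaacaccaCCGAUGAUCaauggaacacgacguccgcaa
Counted from 1 at the 5′ end of the capitals, the transition is U9C opposite SPCC11E10.09C and U5C in the other sequences, and in each case the 9 letters become CCGACGAUC. These letters were found from those 4 sites and then searched at all others. Over all antisense sites, 9 (3.41%, 1.80 to 6.35%) became CCGACGAUC through their transition, 5 by U5C, 3 by U9C and 1 by U1C, against 0.671% of all nuclear sites. Among the 517209 uridines that meet the same 3 conditions, 13 (0.00251%) would give CCGACGAUC. So 9 of these 13 uridines were in the list. The 9 sites held 84.5% of the transitions at antisense sites, but the choice of the 4 sites fixed most of that share. Without those 4, 5 of 260 antisense sites (1.92%, 0.824 to 4.42%) matched exactly, against 0.646% of all nuclear sites and 9 of 517205 uridines. These 5 held 26.9% of the transitions at the 260 sites, and a median of 90% of their reads carried the transition. At least 10 transitions were counted at 12 of the 264 antisense sites, against 7.1% of all nuclear sites. Of these 12, 9 matched exactly, but they include the 4 sites from which the letters were found. With 1 other mismatch allowed, and the 4 included, 17 antisense sites (6.44%, 4.06 to 10.1%) matched, against 1.82% of all nuclear sites and 0.0677% of uridines that meet the conditions. The sites beyond the first 4 that matched exactly faced dnf1 (90 of 100 reads with the transition), pvg1 (62 of 64), mce1 (60 of 78), SPBPB10D8.01 (23 of 24) and SPAC222.13C (14 of 74). The last pair was named after its values were seen. The same letters close the 3′ end of the 5′ RNA adapter in common small-RNA library kits. The adapters of this library are not given in the sources used here, and whether reads at these sites hold adapter letters was not tested. The 17 sites were kept in the results below, and values without them are given beside the main results.

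**Figure D1:**
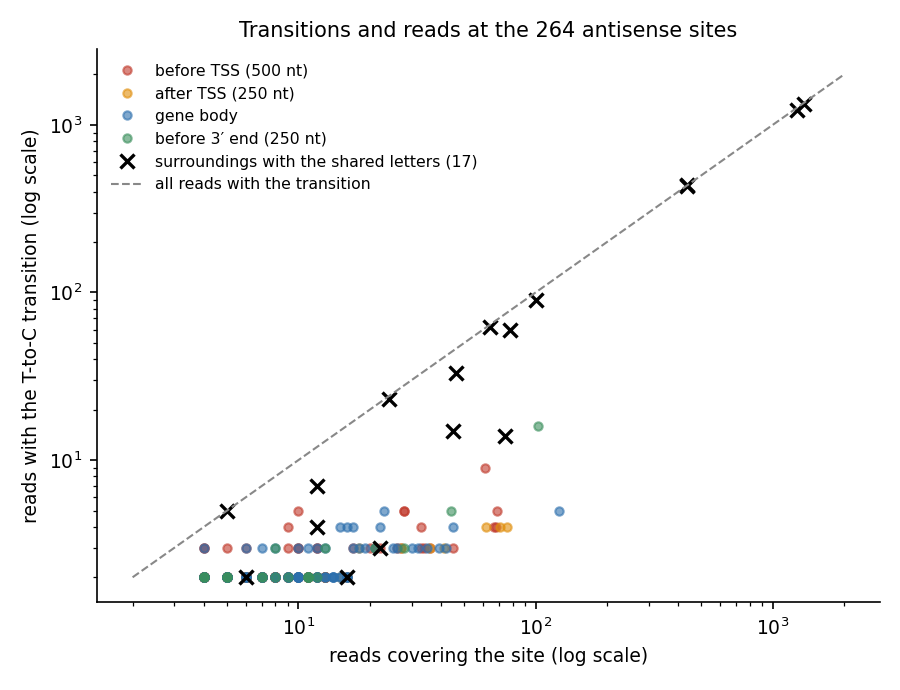
Reads with the T-to-C transition against reads covering the site, both on log scales, for the 264 antisense sites, coloured by position against the opposing gene. Crosses mark the 17 sites whose surroundings hold the shared letters with at most 1 other mismatch; they include the 8 sites on or close to the dashed line, where all reads carry the transition, while the other 247 sites have at most 16 transitions.

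Most antisense sites were shallow. Over all 264, the median was 10 reads (9 to 11) and 2 transitions, against medians of 13 reads and 2 transitions over all nuclear sites. Exactly 2 transitions were counted at 182 of them (68.9%, 63.1 to 74.2%), against 57.2% of all nuclear sites. Without the 17 sites, 606 transitions in 3411 reads remained at 247 sites, with a median of 9 reads, exactly 2 transitions at 72.9% of them and 16 at most. Single sites therefore carry little weight, and groups of sites are compared below.

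Antisense sites were sparse for the sequence open to them. There were 0.510 sites per 1000 uridines that meet the conditions (0.451 to 0.576), against 1.96 over all nuclear uridines. The territory differed as well, since all nuclear uridines include those in abundant transcripts. Chromosome I held 153 antisense sites at 0.644 per 1000 uridines (0.546 to 0.754), chromosome II 63 at 0.372 (0.285 to 0.475) and chromosome III 48 at 0.437 (0.322 to 0.579). All sites of the list were spread more evenly, at 2.03, 1.95 and 1.84 per 1000 uridines. On chromosome I, 5 of the 6 genes with 5 or more antisense sites are found, and without those genes and their uridines its density was 0.508 (0.421 to 0.607). That of chromosome III, without inv1, was 0.394 (0.285 to 0.530).

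Position against the opposing gene set apart sites before its TSS, where transcription leads away from the gene, from sites inside it. Within 500 nt before the TSS lay 102 sites at 1.11 per 1000 uridines (0.906 to 1.35). The opening 250 nt of the gene held 35 at 0.544 (0.379 to 0.756), the body 106 at 0.313 (0.256 to 0.379) and the last 250 nt 21 at 0.937 (0.580 to 1.43). The body is what lies between these windows, and its interval overlapped neither that before the TSS nor that before the 3′ end. The body interval ended at 0.37860, just below the 0.37863 at which that after the TSS began. Relative to the body, the density was 3.55 times higher before the TSS (2.68 to 4.70), 1.74 times higher after it (1.15 to 2.57) and 2.99 times higher before the 3′ end (1.78 to 4.81). Counting each cluster of sites once, the ratios were 3.25, 1.46 (0.923 to 2.23) and 2.99. Without the 17 sites they were 4.01, 1.81 and 3.41. At sites with at least 13 reads, the median of all nuclear sites, the ratio before the TSS fell to 2.23 (1.32 to 3.71) and that before the 3′ end to 1.76 (0.543 to 4.43), while that after the TSS was 1.47 (0.705 to 2.83). With at least 3 transitions, the ratio before the TSS was 2.89 (1.71 to 4.83), and the intervals after the TSS (0.630 to 2.92) and before the 3′ end (0.845 to 5.86) reached below 1. Only the ratio before the TSS had an interval above 1 in each of these recounts.

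**Figure D2:**
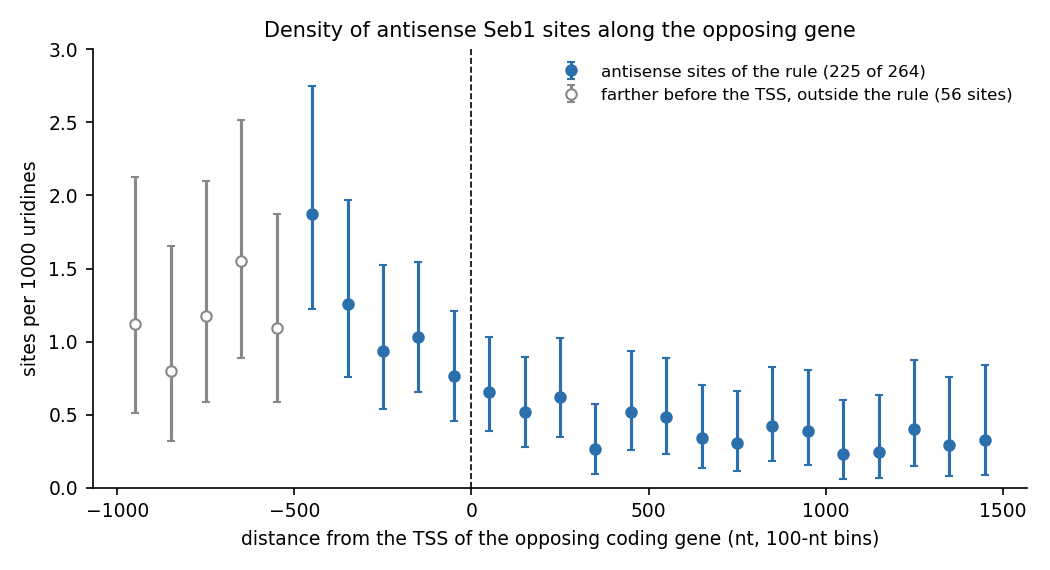
Antisense Seb1 sites per 1000 uridines that meet the conditions, in bins of 100 nt by distance from the TSS of the opposing coding gene (vertical bars, 95% Poisson intervals). Filled points show 225 of the 264 sites, the other 39 lying beyond 1500 nt, and open points the 56 sites that lie 501 to 1000 nt before the TSS, outside the chosen window; density was 1.88 at 401 to 500 nt before the TSS and between 0.234 and 0.522 from 400 nt into the gene.

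Over the distance bins, the density was highest away from the TSS, at 1.88 per 1000 uridines from 401 to 500 nt before it (26 sites, 1.23 to 2.75), and was 0.767 in the 100 nt next to it (18 sites, 0.455 to 1.21). It was 1.37 at more than 250 nt before the TSS (1.02 to 1.81) and 0.933 in the nearer 250 nt (0.695 to 1.23), with 51 sites in each. These intervals overlap. Between 501 and 1000 nt before the TSS, outside the chosen window, the same conditions gave 56 further sites at 1.16 per 1000 uridines (0.876 to 1.51), near the 1.11 inside it. In the bin next to the limit, from 501 to 600 nt, the density was 1.1 (0.584 to 1.88), below the 1.88 of the bin inside it, but their intervals overlap. Just inside that limit, 26 sites at 401 to 500 nt had a median of 10.5 reads and an occupancy of 0.261, and 18 had UGUA within 25 nt. Just outside it, 13 sites at 501 to 600 nt had a median of 8 reads and an occupancy of 0.222, and 9 had UGUA. At 601 to 700 nt, 4 of 16 had it. At the other limit, 30 sites at 1001 to 1100 nt after a same-strand gene had a median occupancy of 0.136 and 16 of them had UGUA within 25 nt, against 0.0810 and 18 of 38 at 901 to 1000 nt.

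UGUA, the letters known from Seb1 sites after coding genes, was found within 25 nt of 120 antisense sites (45.5%, 39.6 to 51.5%), against 43.4% of all nuclear sites. Uridines that meet the conditions and lie at least 26 nt from any site had UGUA nearby in 21.9% of cases, a ratio of 2.07. Before the TSS, UGUA stood near 65 of 102 sites (63.7%, 54.1 to 72.4%), against 25.3% of uridines there. In the body it stood near 33 of 106 (31.1%, 23.1 to 40.5%), against 21.1% of uridines. The intervals before the TSS and in the body did not overlap. The share after the TSS was 34.3% (20.8 to 50.8%) and that before the 3′ end 47.6% (28.3 to 67.6%). The share before the TSS was close to that of the 2245 sites 1 to 250 nt after coding genes, 64.9% (62.9 to 66.8%). The share in the body was below that of the 1159 sites in annotated antisense lncRNA genes, 40.4% (37.6 to 43.2%), but their intervals overlap. With 1 site per cluster, the shares before the TSS and in the body were 60.7% and 30.7%. Leaving out the 17 sites with the shared letters gave 48.2% over all antisense sites, 64.4% before the TSS, 37.5% after it and 34.4% in the body.

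**Figure D3:**
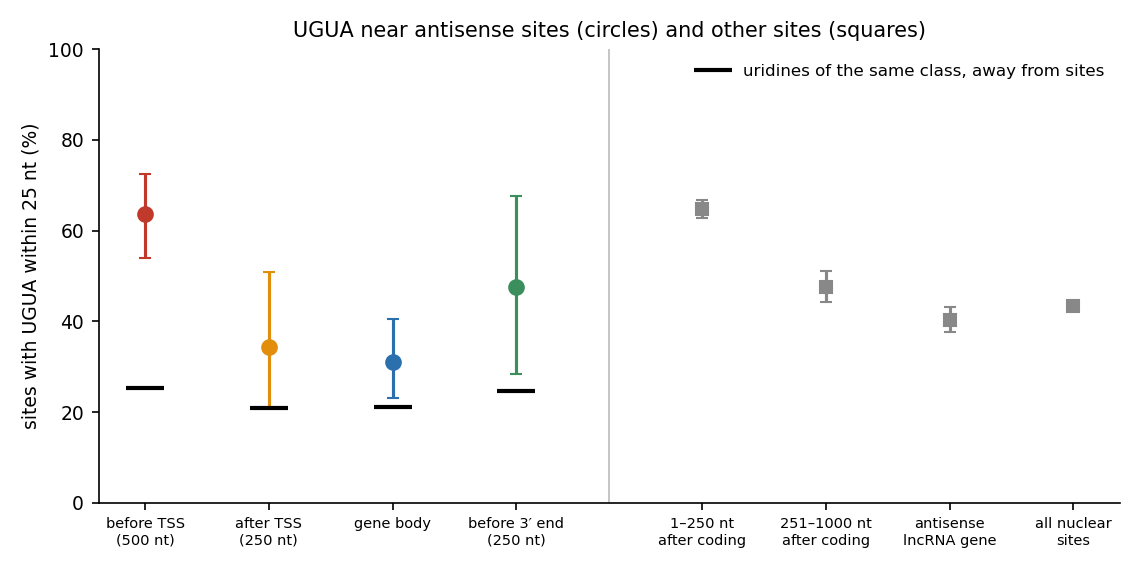
Percent of sites with UGUA within 25 nt on the crosslinked strand (vertical bars, 95% Wilson intervals). Circles are antisense sites in 4 position classes, black dashes the uridines of the same class at least 26 nt from any site, and grey squares other site classes; antisense sites before the TSS (63.7%) and sites 1 to 250 nt after coding genes (64.9%) stand highest, and those in gene bodies (31.1%) lowest.

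The crosslinked base was itself the first U of UGUA at 34 antisense sites (12.9%, 9.36 to 17.5%), against 13.1% of all nuclear sites. It was so at 20 sites before the TSS (19.6%) and at 10 in the body (9.43%). Intervals were not computed for these shares, which rest on few sites. GUAG was found within 25 nt of 78 antisense sites (29.5%, 24.4 to 35.3%), against 25.2% of all nuclear sites and 13.7% of uridines away from sites, a ratio of 2.16. Unlike UGUA, its share was alike before the TSS (31.4%, 23.2 to 40.9%) and in the body (28.3%, 20.6 to 37.5%). After the TSS it was 37.1% (23.2 to 53.7%), and before the 3′ end 3 of 21 sites had it. Without the 17 sites, GUAG stood near 31.6% of antisense sites.

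Among the tetramers near at least 5% of the antisense sites, GUAG and UGUA had the largest ratios to uridines. They were followed by GCCG (21 sites, 1.97, against 4.04% of all nuclear sites), CCGA (32 sites, 1.79, against 6.62%) and AUGU (95 sites, 1.73, against 31%). CCGA is part of the shared letters. Without the 17 sites its ratio was 1.32, while that of GCCG was 1.90, that of AUGU 1.75, that of UGUA 2.20 and that of GUAG 2.31. The median share of U in the 51 nt around an antisense site was 31.4%, the same as around uridines away from sites. AAUAAA, the canonical signal for 3′ end cleavage and poly(A) addition, lay within 100 nt before 33 antisense sites (12.5%, 9.04 to 17.0%), against 11.4% of all nuclear sites, 12.1% of uridines and 17.9% of sites 1 to 250 nt after coding genes.

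The occupancy of antisense sites was higher than that of the list as a whole, and the RNA-Seq coverage beneath them was lower. Their median occupancy was 0.108 (0.0857 to 0.133), against 0.0515 for all nuclear sites, 0.0800 for sites 1 to 250 nt after coding genes and 0.0606 for sites in antisense lncRNA genes. The maximum of 1 was reached at 35 sites (13.3%, 9.69 to 17.9%), against 5.74% of all nuclear sites. At the 229 sites below the maximum the implied RNA-Seq coverage had a median of 27 reads (22 to 33), against 58 for all nuclear sites and 45.5 for sites in antisense lncRNA genes. Because the coverage is the divisor of the occupancy and at least 2 transitions were seen at every site, a site with little coverage cannot have a low occupancy. How far the low coverage accounts for the high occupancy was not tested. Without the 17 sites, the median occupancy was 0.0968, 26 sites (10.5%) were at the maximum, and the median coverage was 26 reads.

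Occupancy differed with position. Before the TSS the median was 0.250 (0.167 to 0.400), after it 0.118, in the body 0.0580 (0.0400 to 0.0769) and before the 3′ end 0.0968. The maximum was reached at 24, 4, 6 and 1 of these sites. Implied coverage ran the other way, with medians of 14 reads before the TSS, 22 after it, 48.5 in the body and 28.5 before the 3′ end, while the PAR-CLIP reads at the sites were alike, with medians of 8, 11, 10.5 and 9. The order of the 4 classes by occupancy was thus the reverse of their order by coverage. Whether the coverage inside a gene includes reads of the opposing transcript was not tested, so these medians need not describe antisense RNA alone. In the 250 nt next to the TSS, median occupancy was 0.400, and farther out it was 0.167. Of the 6 body sites at the maximum, 5 were among the 17 with the shared letters, and without the 17 sites the body had 1 site at the maximum and a median of 0.0526. After the TSS the number at the maximum then fell from 4 to 1 and the median was 0.100. Before the TSS the median stayed at 0.250.

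**Figure D4:**
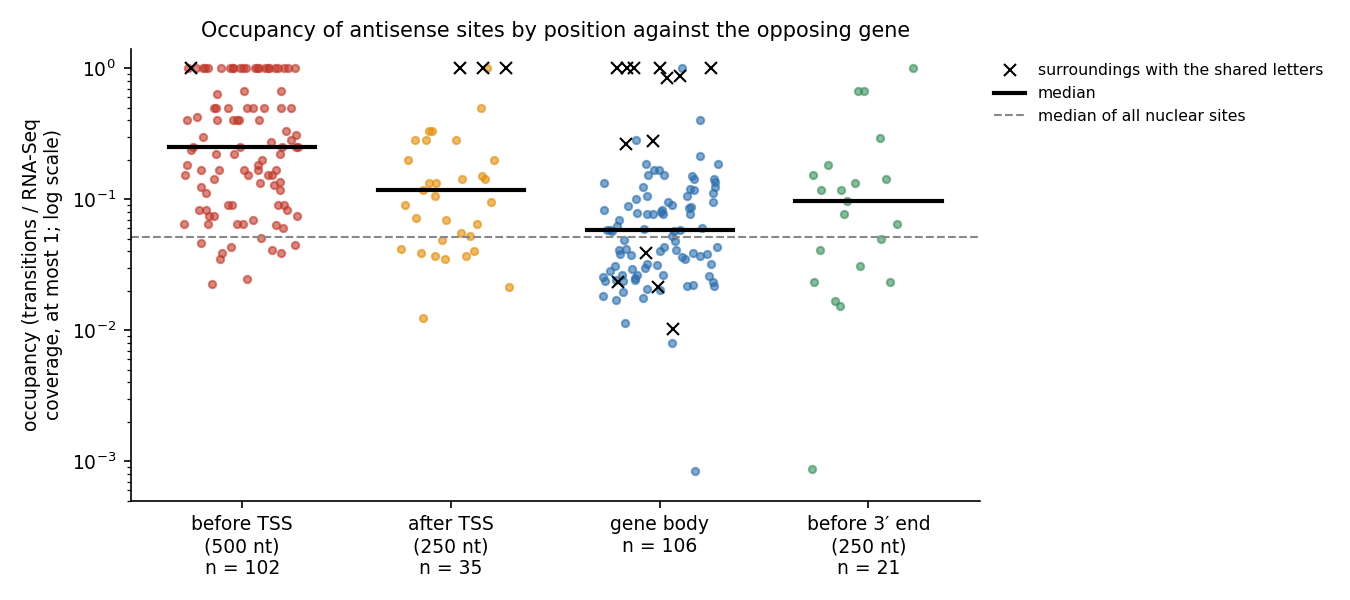
Occupancy (transitions over RNA-Seq coverage, at most 1, log scale) of each of the 264 antisense sites by position against the opposing gene. Black bars are medians, falling from 0.250 before the TSS to 0.0580 in the body, the dashed line is the median of all nuclear sites (0.0515), and crosses mark the 17 sites with the shared letters, 13 of them in the body.

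Antisense sites with UGUA had a median occupancy of 0.143 and those without it 0.0779. Within the sites before the TSS the values were 0.286 (65 sites) and 0.167 (37 sites), and within the body 0.0690 (33 sites) and 0.0526 (73 sites). None of the 33 body sites with UGUA reached the maximum occupancy, and 6 of the 73 without it did. Without the 17 sites with the shared letters, only 1 body site was at the maximum. At sites below the maximum, median implied coverage, the divisor of occupancy, was 22 reads with UGUA and 35 without it. In the body these medians were 34 and 51, and before the TSS 14 and 13. How far coverage accounts for the differences in occupancy was not tested.

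On their own strand, antisense sites lay at distances from other genes much like those of the uridines open to them. The conditions leave out the first 1000 nt after a gene, so only distances beyond it are compared. After the 3′ end of the nearest gene upstream, 117 sites fell at 1001 to 1500 nt (0.543 per 1000 uridines, 0.449 to 0.651), 51 at 1501 to 2000 nt (0.403, 0.300 to 0.530), 68 at 2001 to 3000 nt (0.584, 0.454 to 0.741) and 23 at 3001 to 5000 nt (0.474, 0.301 to 0.711). From 1001 nt on, density thus did not fall steadily with distance from a gene end, while nearer distances are not covered by these sites. The upstream gene was a coding gene for 148 sites, a lncRNA gene for 97 and a snoRNA gene for 13, most of these after snoR56. Of the 12606 annotated genes, 5113 are coding genes and 7133 lncRNA genes. The kind of upstream or downstream gene was not counted for the uridines that meet the conditions, so these numbers have no such background. Downstream, the next annotated gene on the strand was a lncRNA gene for 138 sites and a coding gene for 117. Within 100 nt before its TSS lay 26 sites, and the density there was 0.528 (0.345 to 0.773), against 0.514 (0.417 to 0.628) for the 96 sites more than 1000 nt before it.

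A site on the opposing strand was listed within 50 nt of 19 antisense sites (7.2%, 4.66 to 11.0%), against 3.84% of all nuclear sites and 6.55% of uridines that meet the conditions. These 19 sites had a median occupancy of 0.0638 and none reached the maximum. All 264 surroundings of 51 nt occur once in the genome, as do those of 99.9% of all nuclear sites.

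Most antisense sites had no other antisense site close by. Chained at gaps of up to 50 nt they formed 238 clusters, of which 219 held 1 site, 14 held 2, 3 held 3 and 2 held 4. Thus 45 sites had another antisense site within reach. Counting any listed site on the strand as a neighbour, 48 (18.2%, 14.0 to 23.3%) had one, against 35.7% of all nuclear sites. These shares are not corrected for density, which was 0.510 per 1000 uridines for antisense sites and 1.96 for all nuclear sites. Whether antisense sites cluster less or more than their density implies was not tested. They faced 170 coding genes, 121 of them with 1 site, and 6 genes with at least 5 sites held 38. Of the 1413 coding genes with at least 100 uridines that meet the conditions, 147 (10.4%) faced an antisense site.

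Kinds of opposing genes were judged from the words of their annotation, and no kind stood far from the genes that could have been chosen. Among the 147 genes were 9 annotated as transporters (6.12%, against 4.25% of the 1413), 3 ribosomal protein genes (2.04% against 2.19%), 5 kinase genes (3.40% against 5.17%), 2 transcription factor genes (1.36% against 2.97%), 3 genes annotated for meiosis or sporulation (2.04% against 1.42%) and 14 of unknown function (9.52% against 6.86%). None of the 13 retrotransposon genes was among them (0 to 2.55%, against 0.920% of the 1413). A site on the gene's own strand was listed for 100 of the 147 (68.0%) and for 73.0% of the 1413.

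The gene facing most antisense sites was mug5, on chromosome I at 5243053 to 5244114 on the plus strand, one of the genes named for a rise in meiosis. Its 9 sites lay between 77 nt before and 498 nt after its TSS, with 2 or 3 transitions each in 5 to 42 reads. Their occupancies were 0.0556 to 0.120, a narrow range, and 2 of the 9 had UGUA nearby. The 4 sites from 61 to 105 nt after the TSS made up the cluster shown above. The next annotated gene on their strand is the lncRNA gene SPNCRNA.4364, 315 nt after the nearest site.

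Opposite wdr70, which encodes a WD repeat-containing protein (chromosome I, 1673685 to 1680106, minus strand), 8 sites lay 442 to 956 nt after the TSS. They had 2 to 4 transitions in 12 to 45 reads, and occupancies of 0.0196 to 0.125. UGUA was near 6 of the 8. In their cluster of 3 sites, 791 to 836 nt after the TSS, transitions were 2 or 3 and UGUA was near 1 site. All lay in the body, where UGUA was less common than before the TSS. The largest number of transitions, 4 in 45 reads, was at the site 509 nt after the TSS that opens the UGUA shown above.

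**Figure D5:**
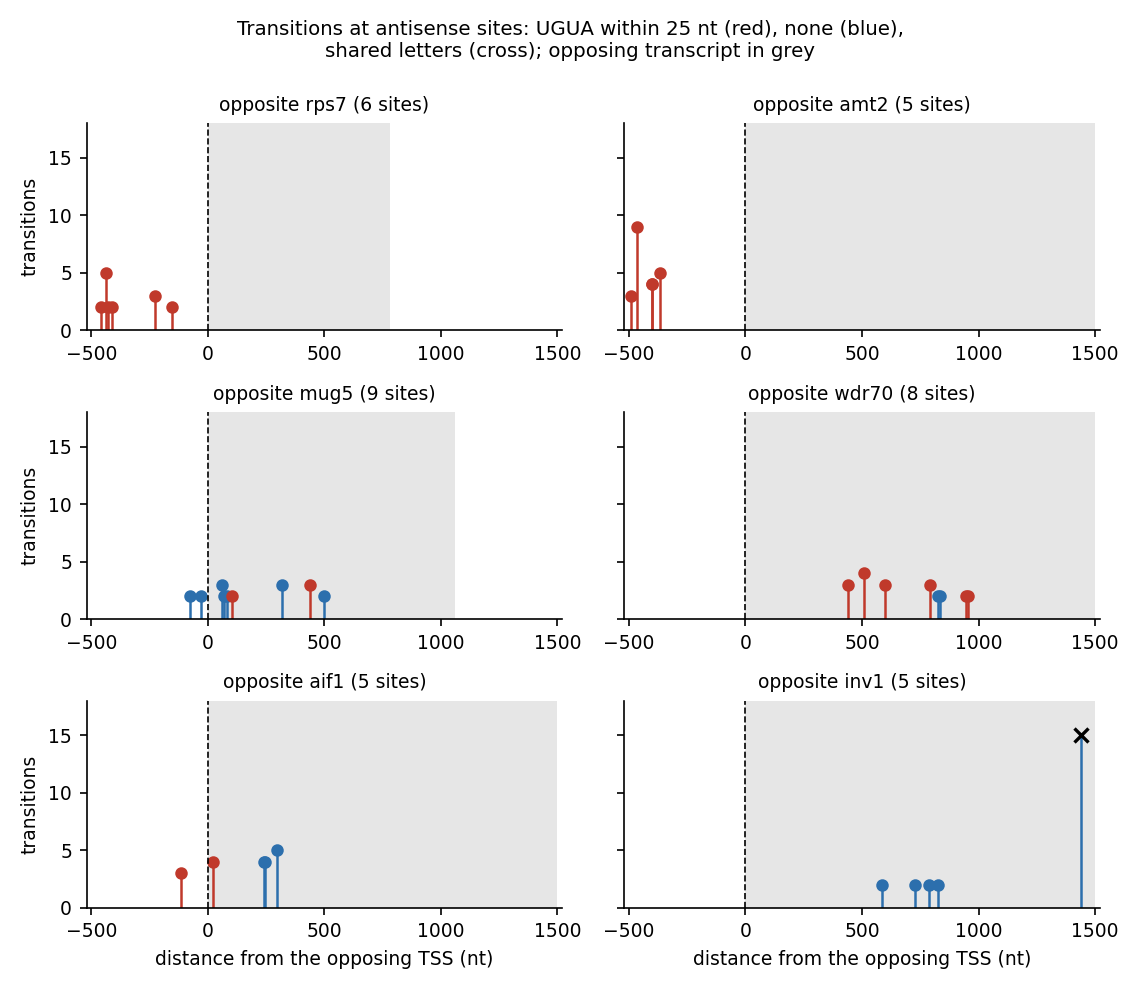
Transitions at each antisense site facing the 6 coding genes with at least 5 sites, by distance from the TSS of the opposing gene (dashed line, with the opposing transcript in grey). Red sites have UGUA within 25 nt and blue sites do not; all sites facing rps7 and amt2 are red and lie before the TSS, while all sites facing inv1 are blue and the cross marks its site with 15 transitions near the shared letters.

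The sites before rps7 and amt2 were all near UGUA. The gene rps7 encodes a protein of the small ribosomal subunit (eS7, chromosome I, 2241748 to 2242530, minus strand), and its 6 sites lay 152 to 459 nt before the TSS. Transitions at these 6, from the nearest to the farthest, were 2, 3, 2, 2, 5 and 2 in 8, 10, 11, 8, 10 and 12 reads. Occupancies were 0.667, 0.429, 1, 1, 1 and 0.286, so 3 of the 6 were at the maximum, and the implied coverage at the others was 3 to 7 reads. The lncRNA gene SPNCRNA.3005 begins 59 nt after the farthest site on the same strand.

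For amt2, which encodes an ammonium transporter of the plasma membrane (chromosome I, 1731069 to 1733268, plus strand), 5 sites lay 368 to 490 nt before the TSS. Transitions were 5, 4, 4, 9 and 3 in 69, 67, 68, 61 and 36 reads, so that 5 of the 7 sites before a TSS with most reads faced amt2. Occupancies were 0.313, 0.250, 0.250, 0.643 and 0.273. All 5 had both UGUA and GUAG within 25 nt. They lay 1017 to 1139 nt after the 3′ end of the lncRNA gene SPNCRNA.758, which is just past the limit of 1000 nt. With the limit at 2000 nt none of them would be kept, and the same holds for other clusters shown above. The cluster before rps7 began 1583 nt after SPAC18G6.13, that before SPBC13G1.05 1213 nt after SPNCRNA.1634, and that opposite wdr70 1152 nt after lys2.

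Before SPBC13G1.05, annotated as a folding protein (chromosome II, 3734404 to 3736981, plus strand), 4 sites lay 241 to 462 nt before the TSS, all with UGUA. Transitions were 5, 2, 3 and 3 in 28, 11, 27 and 34 reads, and occupancies were 0.128, 0.0225, 0.0508 and 0.0833, lower than before rps7 and amt2. The alpha-ketoglutarate-dependent dioxygenase gene abh1 begins 88 nt after the last of them on the same strand.

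The antisense site with most reads among those without the shared letters, 125, faced aif1, which encodes a flavoprotein (chromosome I, 5146183 to 5148353, plus strand). It was 1 of 5 that lay between 114 nt before and 298 nt after the TSS, which had 3, 4, 4, 4 and 5 transitions in 45, 62, 76, 71 and 125 reads. Their occupancies were 0.0833, 0.133, 0.0488, 0.0526 and 0.0481. UGUA stood near the site before the TSS and the one 22 nt after it, and not near the other 3. All 5 lay 1993 to 2405 nt after the 3′ end of snoR56, a small nucleolar RNA gene on their strand. A further 3 sites lay 3022 to 5099 nt after it, opposite SPAC29A4.02C and mrps9, with 2 or 3 transitions and occupancies of 0.000844 to 0.00796. Their 8 to 12 reads were near the median of 10 over all antisense sites, so the low occupancies go with a high implied coverage. SPAC29A4.02C encodes a translation elongation factor subunit, and whether that coverage includes its own transcript was not tested.

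Opposite inv1, which encodes the secreted invertase that splits sucrose (chromosome III, 1723434 to 1726164, plus strand), 5 sites lay 587 to 1440 nt after the TSS and none had UGUA. At 4 of them 2 transitions were counted in 5 to 13 reads, with occupancies of 0.0952 to 0.167. The fifth had 15 transitions in 45 reads and an occupancy of 0.882, and its surroundings matched the shared letters with 1 other mismatch.

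The other genes with 4 sites among the 10 named for their number of sites were SPAC18G6.12C, SPAC57A7.05 and SPAC7D4.08, all uncharacterized and on chromosome I. Sites facing SPAC18G6.12C had 2 to 5 transitions in 7 to 39 reads, and 2 of the 4 had UGUA. Those facing SPAC57A7.05 were spread from 1394 to 4632 nt after the TSS, with occupancies of 0.143 to 0.286. Those facing SPAC7D4.08 lay 211 to 655 nt after the TSS, with occupancies of 0.0392 to 0.125. A further gene with 4 sites, pxl1, which encodes a paxillin-like protein, came after them by transitions and is added with its values known. All 4 of its sites had UGUA, and their occupancies were 0.0588 to 1.

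Near the 3′ ends of opposing genes, the site with most transitions faced map2, which encodes the mating pheromone P-factor (chromosome III, 986014 to 986684, minus strand). It lay 116 nt before the 3′ end and reached an occupancy of 1, and 16 of its 102 reads had the transition. It was the only one of the 12 antisense sites with at least 10 transitions that did not match the shared letters within 1 other mismatch, and also the only one of the 12 with UGUA within 25 nt. The next 4 faced SPAC227.19C (5 transitions in 44 reads, occupancy 0.294), crd1, the cardiolipin synthase gene (3 in 13, 0.0155), sds22, which encodes a regulatory subunit of protein phosphatase PP1 (3 in 8, 0.0309), and SPAC14C4.07, a transporter gene (3 in 21, 0.0411).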

How the data were processed

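The authors sequenced 1 Seb1-TAP PAR-CLIP library, called crosslink sites and deposited, for each, the count of reads with the transition, the count of covering reads, a p-value and the occupancy, a ratio to RNA-Seq coverage. The deposited counts are not normalised, and the p-value (at most 0.00499) was not used further. The submitters' processing notes name the build ASM294v2 and Bowtie 1.1.1. Other settings are not given in the sources used here. Sites were placed on ASM294v3 with its RefSeq annotation. Each of the 15789 nuclear sites is a T there on the strand given, and the remaining 35 sites were left out. Implied coverage is transitions over occupancy, a whole number at all 15824 sites within a tolerance of 0.001, which large numbers pass by construction.

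A site inside an opposing coding gene was assigned to that gene, otherwise to the nearest TSS. Genes under 500 nt were divided at their midpoint. The text names the 10 opposing genes with the most sites, the 5 sites with the most transitions per position class and the 5 largest clusters, of which 1 site is not reported here. Others were named after their values were seen. The members and lists were chosen with earlier results of these data known. Python 3.11.15 was used with scipy 1.17.1 for the intervals, pandas 2.3.3 and numpy 2.4.6 for tables, and matplotlib 3.10.9. Assignment and motif searches were checked base by base at 3000 random positions, with 0 mismatches, and on simulated data. The alternatives covered depth, clusters, occupancy, the conditions of the choice and the windows.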

Additional observations from a re-analysis of the deposited data

How the results depend on the processing

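Over 18 alternatives, 164 values of 16 results were recomputed. Of these, 129 stayed within the interval of the value reported, or within 1.5 times it for a count, and 35 moved. The other site classes were not recounted under these alternatives. All 33 density ratios to the body and all 26 motif ratios to uridines stayed above 1, but 5 density intervals reached below 1, 3 after the TSS (with at least 13 reads, at least 3 transitions, and 1 site per cluster) and 2 before the 3′ end (with at least 13 reads and at least 3 transitions). With at least 13 reads, 86 sites remained, the density ratio was 2.23 before the TSS and 1.76 before the 3′ end, and UGUA stood near 53.5% of sites (2.44 times uridines), 80.8% before the TSS and 41.9% in the body. That body share was no longer below the 40.4% of all sites in antisense lncRNA genes. With at least 3 transitions, 82 sites remained, UGUA stood near 54.9% (2.50 times uridines) and near 86.2% before the TSS, the median occupancy was 0.146, 25.6% were at the maximum and the median coverage was 36 reads. With same-strand sites allowed from 500 nt after a gene, there were 509 sites, with a median occupancy of 0.0833 and 8.64% at the maximum. From 2000 nt, there were 96, and GUAG stood near 24.0% (1.66 times uridines), no longer above the 25.2% of all nuclear sites. Without sites at the maximum, the median occupancy was 0.0833. Within 10 nt, UGUA stood near 31.4% (3.25 times uridines), 44.1% before the TSS and 21.7% in the body, and GUAG near 17.05% (3.17 times). Within 50 nt, the UGUA values were 59.8% (1.55 times), 81.4% and 40.6%, and GUAG stood near 42.4% (1.64 times). A site on the other strand lay within 25 nt of 4.55%, and AAUAAA within 50 nt before 7.95%. These windows change the measure itself. For the other changes, the cause was not tested.

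No paired analysis was possible because 1 library was analysed and no test was made. The alternatives without the sites holding the shared letters, and without opposing genes of 5 or more sites, were chosen after seeing the data. With 1 library, differences between cultures could not be measured, and the intervals treat sites as independent although neighbours can share reads. Most sites rest on 2 transitions, the smallest number in the list, so binding below that depth was not detectable. Antisense RNA was not measured as whole transcripts, and its start and end points are not known here.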
